A study of Mus musculus with 88 samples.

Results

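A set of 9 interferon-stimulated genes, Ifit1, Ifit3, Isg15, Irf7, Irf9, Oasl2, Bst2, Usp18 and Rtp4, was followed in RNA-seq of 3 brain regions from mice of 2 strains, with or without chronic social defeat stress (CSDS). The members were the rows of the region tables whose Ensembl identifier carries one of these symbols in the GRCm38 annotation, 9 of 48811 genes listed. The tests covered 18946 genes in the medial prefrontal cortex (mPFC), 17515 in the bed nucleus of the stria terminalis (BNST) and 19559 in the ventral hippocampus (vHPC). All 9 members were tested in the BNST and vHPC. In the mPFC 8 were tested, and Isg15 was not analysed there.

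All animals were male mice 8 weeks of age from the inbred strains labelled C57BL/6Crl (B6) or DBA/2Crl (D2). The authors' methods name them C57BL/6NCrl and DBA/2NCrl. Each of the 88 libraries came from the tissue of 1 mouse, 81 mice in all, because 7 mice were sampled in both the mPFC and the vHPC. Controls shared a cage with another control mouse that they could not touch, and defeated mice met a new aggressive CD1 male each day. Defeated mice were classed as resilient or susceptible by a later test of social approach against controls of their strain. Tissue was taken about 1 week after the last defeat, and all mice were housed alone in between. In the mPFC there were 6 B6 mice in each of the 3 groups (control, resilient, susceptible), and D2 mice were controls (6) or susceptible (8). In the BNST each B6 group had 5 mice, and D2 mice were controls (5), resilient (3) or susceptible (5). In the vHPC the B6 groups had 6, 8 and 3 mice in that order, and D2 mice were again controls (6) or susceptible (5). In dissected tissue, fewer cells of a type and less RNA per cell cannot be told apart.

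Interferons are secreted proteins that bind receptors on the cell surface and, through JAK kinases, activate transcription factors. These join IRF9 in a complex that binds response elements in promoters and switches on a large set of antiviral genes. A low level of these genes is kept up in healthy tissue, and in the brain they are expressed by microglia, blood vessel cells, astrocytes and neurons. Among the members, Irf9 encodes the DNA-binding part of that complex and Irf7 a transcription factor that raises interferon production. Ifit1, Ifit3 and Oasl2 encode proteins that act on viral RNA or on its sensing. Isg15 encodes a ubiquitin-like protein that is joined to other proteins, and Usp18 the protease that removes it and also dampens the receptor. Bst2 (tetherin) encodes a membrane protein that holds budding viruses at the cell surface, and Rtp4 a receptor transporter protein that interferon induces.

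The members lie on 8 chromosomes (GRCm38). Ifit3 (ENSMUSG00000074896, chr19:34583531-34588731) and Ifit1 (ENSMUSG00000034459, chr19:34640871-34650009) are neighbours on the plus strand of chromosome 19, and Bst2 (ENSMUSG00000046718) lies at chr8:71534255-71537456 on the minus strand. Oasl2 (chr5:114896936-114912234), Usp18 (chr6:121245906-121270917), Irf9 (chr14:55603571-55610030) and Rtp4 (chr16:23520291-23614222) are on the plus strand, and Isg15 (chr4:156199424-156200818) and Irf7 (chr7:141262706-141266481) on the minus strand. Some counts can hold reads of other genes. Of the 90-base windows of its transcripts, Ifit3 shares 35.1% with its near copy Ifit3b and Rtp4 shares 9.75% with Gm45338, a gene model that overlaps it on the same strand. Ifit1 shares 4.05% with Ifit1bl2, and the other members share less than 1%. Irf7 overlaps Phrf1, Usp18 overlaps Gm44148 and Rtp4 overlaps Masp1 on the opposite strand, and Irf9 overlaps Rnf31 on its own strand. Whether strand was used in counting is not given in the sources used here, so reads of such partners cannot be told apart. Both strains were aligned to the same reference genome, which is that of C57BL/6, and the part of D2 variants in the number of reads placed on a gene was not tested.

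Promoter sequences from RefSeq (GRCm38.p6, 250 bases before to 50 after each start site) matched 7 members, all but Usp18 and Rtp4. They were searched on both strands for GAAANNGAA, the core of the element that the IRF9 complex binds. It occurred in the promoters of Isg15, Bst2, Ifit3 and Ifit1, each time at least 2 times, and in none of those of Oasl2, Irf7 and Irf9. Of all 32851 promoters in the table, 8.56% held it and 0.624% held it at least 2 times. The 120 bases from −170 to −51 of the start site are shown for these 4 genes, to set the elements beside the expression values, 5′ to 3′ on the gene's strand and with the matches in capitals (TTCNNTTTC is the same motif read on the other strand). Adjoining matches overlap in Isg15, Bst2 and Ifit1. The windows are chr4:156200869-156200988 (minus strand) for Isg15, chr8:71537523-71537642 (minus) for Bst2, chr19:34583359-34583478 (plus) for Ifit3 and chr19:34640719-34640838 (plus) for Ifit1.
Isg15: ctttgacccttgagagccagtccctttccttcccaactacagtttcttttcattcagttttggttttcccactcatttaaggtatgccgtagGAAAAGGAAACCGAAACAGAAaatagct
Bst2: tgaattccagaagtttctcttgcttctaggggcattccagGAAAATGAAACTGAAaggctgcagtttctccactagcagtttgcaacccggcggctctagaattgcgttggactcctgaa
Ifit3: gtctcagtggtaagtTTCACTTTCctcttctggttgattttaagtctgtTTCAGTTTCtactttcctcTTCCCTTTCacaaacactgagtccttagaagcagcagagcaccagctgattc
Ifit1: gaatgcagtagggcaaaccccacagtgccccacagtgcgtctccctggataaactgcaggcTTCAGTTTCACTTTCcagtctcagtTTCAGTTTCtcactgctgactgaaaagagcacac
The palindrome TTCNNNGAA, the core of sites for STAT dimers, was found in 8.3% of all promoters and in 1 member promoter, that of Bst2, where it overlaps the first GAAANNGAA. A match describes the letters and does not show that a factor binds there.

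Levels were compared between genes per kilobase of exon, as log2 CPM per kilobase, where CPM is a gene's share of the reads of its library, scaled to a common total. In B6 controls the highest member was Ifit3 in the mPFC (2.56) and Bst2 in the BNST (0.94) and the vHPC (2.78). Irf9 came second in each region, at 1.5, 0.76 and 1.47. The place of Bst2 differed between the strains. In D2 controls Bst2 stood at −1.44, −0.45 and −0.018 in the mPFC, BNST and vHPC, and Irf9 was the highest member in the BNST (0.44) and vHPC (1.26). Oasl2 and Usp18 were the lowest members of the mPFC in both strains, at −1.23 and −0.95 in B6 and −1.63 and −1.65 in D2. By CPM, which ignores length, the members ranked from percentile 0.675 (Isg15 in the vHPC) to 50.4 (Irf9 in the vHPC) of the genes tested, so most of them were weakly expressed. The library kits differed between the regions, and no test was run between regions. The interferons themselves had few reads. None of 13 interferon genes had enough reads to be tested, 4 had no read in any BNST library, and a BNST library held 0 to 9 reads from all 13.

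Of 6 marker genes listed for each region, 5 of the cortex list had their highest mean in the mPFC, 4 of the BNST list in the BNST and 3 of the hippocampus list in the vHPC, on values that were not scaled together. Examples were Cux2 at 6.41 ± 0.20 log2 CPM (SD) in the mPFC, Six3 at 7.12 ± 0.55 in the BNST and Fibcd1 at 7.28 ± 0.16 in the vHPC, while Slc17a7 of the cortex list and Wfs1 of the hippocampus list were among those highest in another region. The BNST libraries held 11825757 to 25793910 counted reads, and no counts were analysed for the other regions, whose values are log2 CPM. The vHPC libraries of defeated B6 mice stood apart. Each was placed on 77 genes that differ strongly between the strains in BNST controls and, by more than 1 in log2 and the same way, in vHPC controls. With 0 set at the mean of B6 controls and 1 at that of D2 controls, resilient B6 mice of the vHPC lay at 0.324 (0.302 to 0.369). Susceptible B6 mice lay at 0.441 (0.421 to 0.47). Susceptible D2 mice of the vHPC lay at 1.24. In the mPFC the defeated B6 groups lay at 0.0193 and 0.0496, and in the BNST at 0.0481 and 0.0398. None of 9 vHPC library preparation sets that held B6 mice contained both controls and defeated mice of that strain, so library set and defeat cannot be told apart there.

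Bst2 had a lower mean in D2 than in B6 mice in every region and both phenotypes. In the mPFC its level in log2 CPM ranged from 0.36 to 0.79 in B6 controls (median 0.61) and from −2.46 to −0.67 in D2 controls (median −1.46). In resilient B6 mice it ranged from −0.018 to 0.76 (median 0.40) and in susceptible B6 mice from 0.10 to 0.78 (median 0.39). In susceptible D2 mice it ranged from −2.44 to −0.64 (median −1.25). Every one of the 14 D2 mice lay below every one of the 18 B6 mice, whether defeated or not. This separation was seen in 1 of 8 members and, in this direction, in 2.57% of the genes tested. The authors kept genes that reached 1 CPM in at least 6 libraries before the batch adjustment. In the adjusted values 17 B6 mice and no D2 mouse reached 1 CPM of Bst2. On these values it would meet that filter only through B6 mice, where it was high, so its selection favoured a strain difference. The values before adjustment were not analysed. Between controls Bst2 was 4.58-fold lower in D2 mice (log2 difference −2.20, SE 0.26, limma adjusted p = 9.27e-08).

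**Figure D1:**
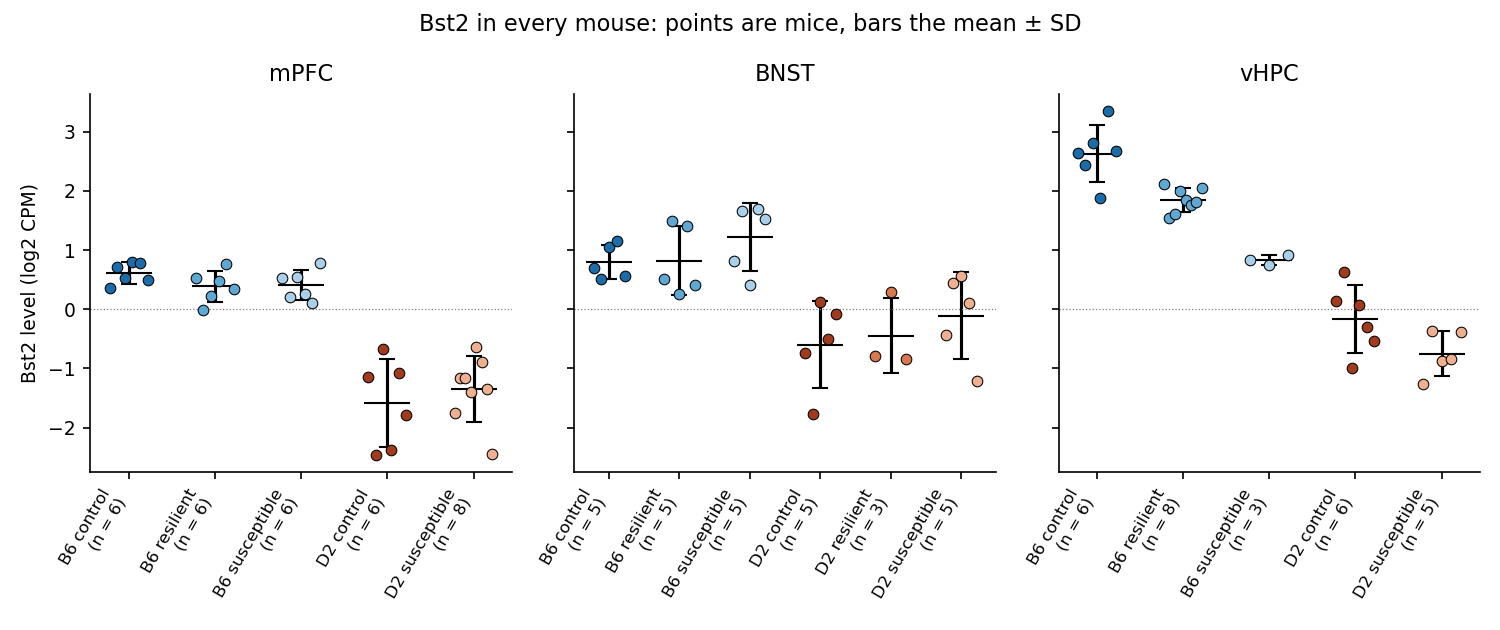
Bst2 level in log2 CPM (vertical axis) in every mouse of the mPFC, BNST and vHPC, by strain and phenotype, with the mean ± SD as bars. D2 mice lie below all B6 mice in the mPFC and vHPC and overlap with them in the BNST, and in the vHPC the B6 groups step down from control to resilient to susceptible.

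In the vHPC the levels of Bst2 in B6 controls ran from 1.87 to 3.35 log2 CPM (median 2.66) and in D2 controls from −0.99 to 0.62 (median −0.11). The 17 B6 mice all lay above the 11 D2 mice, but the gap was narrow, with a lowest B6 value of 0.75 and a highest D2 value of 0.62. Of all genes tested, 5.69% showed that order. All 17 B6 mice and 3 D2 mice reached 1 CPM in the adjusted values, so here too Bst2 would meet the filter only with B6 mice. Between controls Bst2 was 6.95-fold lower in D2 mice (log2 difference −2.80, SE 0.22, limma adjusted p = 4.80e-11). It stayed lower with library preparation set as a covariate (−3.32, limma adjusted p = 0.0147) and within the first sequencing set (−2.85).

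The BNST values rest on few reads, and Bst2 reached 1 CPM there in 15 B6 and 5 D2 mice. Bst2 was counted 24, 21, 32, 29 and 24 times in the B6 controls, at 0.70, 0.51, 1.05, 1.15 and 0.56 log2 CPM. It was counted 8, 3, 18, 9 and 17 times in the D2 controls, at −0.74, −1.78, 0.11, −0.50 and −0.087 log2 CPM. The control groups did not overlap, as was true of 3.43% of all genes, and Bst2 was 2.44-fold lower in D2, but the difference missed the threshold (log2 −1.29, SE 0.39, edgeR adjusted p = 0.0922). Susceptible B6 mice stood at 0.82, 1.66, 0.41, 1.7 and 1.53 and susceptible D2 mice at −0.44, 0.44, 0.57, 0.11 and −1.21. These groups overlapped, and the difference passed (log2 −1.29, SE 0.38, edgeR adjusted p = 0.0449) but rested on single mice. It was lost without susceptible B6 mouse 2, 4 or 5 or susceptible D2 mouse 1, 2, 4 or 5, with an edgeR adjusted p of up to 0.127, and without TMM scaling the difference was −0.84 (edgeR adjusted p = 0.114).

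Most of the other members were also lower in D2 controls of the mPFC, by smaller amounts. There, 6 of 8 members were lower and none higher at an adjusted p under 0.05, beside 27.8% of all genes called, 14.4% lower and 13.4% higher. All 8 had a log2 difference below 0, with a median of −0.42, whereas 49.7% of all genes did and their median was 0.0016. Members were measured in the same mice and varied together, so such counts, here and below, are not counts of independent observations. The control groups did not overlap for Ifit1, Bst2 and Usp18, and 11.7% of all genes showed such a separation. Among the effectors, Ifit1 ranged from 2.11 to 2.75 log2 CPM in B6 controls (median 2.3) and from 1.79 to 2.05 in D2 controls (median 1.92), a log2 difference of −0.44 (SE 0.14, limma adjusted p = 0.0169). Ifit3 ranged from 3.02 to 3.63 and from 2.74 to 3.33, overlapping, with a difference of −0.38 (limma adjusted p = 0.0215). Usp18, the protease that removes Isg15, ranged from 0.25 to 1.03 in B6 (median 0.48) and from −0.42 to 0.066 in D2 (median −0.18). It was 1.62-fold lower in D2 (log2 −0.70, SE 0.20, limma adjusted p = 0.00976). Usp18 reached 1 CPM in 14 B6 and 5 D2 mice of the mPFC, so on the adjusted values it too would meet the filter only with B6 mice. Rtp4 differed by −0.41 (limma adjusted p = 0.00606) and the transcription factor Irf7 by −0.53 (limma adjusted p = 0.0215). Irf9 and Oasl2 did not pass, at −0.17 and −0.41 (limma adjusted p = 0.0834 and 0.0669). With 1 mouse left out the adjusted p rose to at most 0.0551 for Ifit1 (without B6 control 5), 0.0606 for Ifit3 (lost without B6 control 3 or 6 or D2 control 1 or 5) and 0.0758 for Irf7 (lost without B6 control 2 or 5 or D2 control 5).

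In vHPC controls 5 members were lower in D2 and 1 was higher, beside 59.3% of all genes called, 29.1% lower and 30.2% higher. Besides Bst2 the lower members were Usp18 (log2 −0.76, limma adjusted p = 0.00169), Rtp4 (−0.71, 0.000462), Irf7 (−0.51, 0.00442) and Ifit1 (−0.44, 0.0044). Their groups overlapped. Rtp4, for example, ranged from 1.08 to 1.46 log2 CPM in B6 controls (median 1.25) and from 0.25 to 1.193 in D2 controls (median 0.36). Isg15 went the other way, from −1.36 to −0.36 in B6 controls (median −1.01) and from −1.09 to −0.030 in D2 controls (median −0.15). Its log2 difference was 0.55 (SE 0.23, limma adjusted p = 0.0423). Isg15 was the lowest member by CPM there. The call was lost when any of 8 control mice (B6 mouse 1, 2, 5 or 6, D2 mouse 1, 2, 3 or 4) was left out, with a limma adjusted p of up to 0.0988. With library set as a covariate the difference was −0.062. In the BNST no member was called between controls by edgeR, beside 2.51% of all genes, and 1 member had an unadjusted p under 0.05, beside 13.4% of all genes. DESeq2 also called none, with an adjusted p of 0.0544 for Bst2. There 6 of 9 members had a log2 difference below 0, with a median of −0.23, against 45.6% of all genes.

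**Figure D2:**
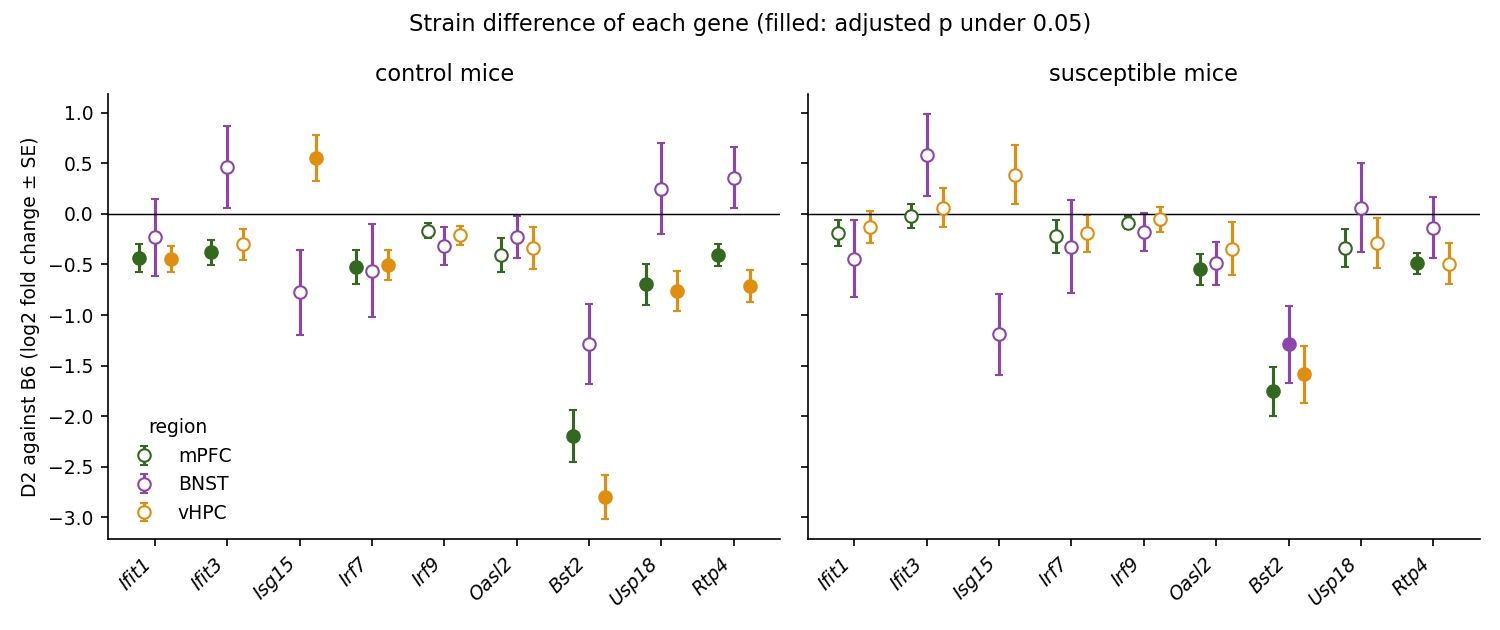
Difference of D2 from B6 mice for each gene and region, as log2 fold change ± SE (vertical axis), in control mice on the left and susceptible mice on the right, with filled points for an adjusted p under 0.05. Bst2 is the lowest point in every region among controls, from −2.80 in the vHPC to −1.29 in the BNST, and the other members lie nearer to 0.

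The strains were also compared in susceptible mice. In the mPFC 3 of 8 members were lower in D2, beside 17.5% of all genes called and 9.7% lower. These were Bst2 (3.37-fold, log2 −1.75, SE 0.24, limma adjusted p = 1.65e-06), Rtp4 (log2 −0.49, limma adjusted p = 0.000666) and Oasl2 (log2 −0.55, limma adjusted p = 0.0119). The groups did not overlap for Bst2 and Rtp4, nor for 7.0% of all genes. All 8 members had a difference below 0 (median −0.28), against 47.2% of all genes. In the vHPC Bst2 alone was called (3.00-fold, log2 −1.59, SE 0.28, limma adjusted p = 8.25e-05), beside 32.7% of all genes and 16.1% lower. Bst2 stood at 0.83, 0.75 and 0.92 in the 3 susceptible B6 mice and at −1.27, −0.38, −0.88, −0.84 and −0.39 in the 5 susceptible D2 mice, without overlap, as were 37.9% of all genes. With library set as a covariate the difference was −1.10 (limma adjusted p = 0.363), and in the first sequencing set −1.27 (limma adjusted p = 0.2). In the BNST Bst2 was the member called, beside 5.18% of all genes and 3.56% lower. Isg15 was counted 13, 15, 40, 22 and 20 times in susceptible B6 mice and 11, 17, 11, 10 and 16 times in susceptible D2 mice. In log2 CPM it stood at −0.10, 0.46, 1.26, 0.59 and 0.66 against −0.31, −0.62, −0.33, −1.05 and −0.41, without overlap, as did 9.03% of all genes. The log2 difference of −1.19 (SE 0.40) did not pass (edgeR adjusted p = 0.0817). Isg15 reached 1 CPM in 7 B6 mice and no D2 mouse of the BNST, so it met the filter of 6 libraries through B6 mice alone.

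Of the 8 members measured in all 3 regions, Ifit1, Irf7, Irf9, Oasl2 and Bst2 had a lower mean in D2 than in B6 controls in every region, and none had a higher mean in every region. Between susceptible mice these 5 and Rtp4 had a lower mean in D2 in every region. As 7 mice were sampled in both, the mPFC and vHPC were not wholly separate samples.

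The same comparison was made in a wider list of 78 interferon-stimulated genes. In mPFC controls 26 of 61 tested were lower in D2 and 6 were higher (median −0.25), and in vHPC controls 44 of 61 were lower and 9 higher (median −0.60). In the BNST 1 of 56 was lower and 3 were higher (median 0.011). Of all genes, 14.4% were lower and 13.4% higher in mPFC controls, and 29.1% and 30.2% in vHPC controls. In BNST controls 2.51% of all genes were called. Some genes of the list differed strongly, in both directions. Slfn8, a Schlafen family gene, was higher in D2 controls, with log2 differences of 1.7 in the mPFC (limma adjusted p = 8.92e-12) and 2.1 in the vHPC, and Slfn2 of the same family was lower in the mPFC, with a log2 difference of −1.66. Gbp9, a guanylate-binding protein gene, was lower in D2 controls, with log2 differences of −3.91 in the vHPC (limma adjusted p = 2.64e-19) and −1.70 in the BNST (edgeR adjusted p = 0.0264). In the BNST Slfn9 was higher in D2 controls (log2 2.74, edgeR adjusted p = 0.000702).

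The receptors and signalling genes moved less. Of 14 tested in the mPFC, Ifnar1, a chain of the type I interferon receptor, was higher in D2 controls (log2 0.19, limma adjusted p = 0.000111). Of 13 tested in the BNST none was called between controls, with none at an unadjusted p under 0.05, and Ifnar1 was higher in susceptible D2 mice (log2 0.47, edgeR adjusted p = 0.0319). In vHPC controls 3 of 15 were higher and 5 lower, with Socs1 (0.60) and Socs3 (−0.54), both inhibitors of cytokine signalling, as the largest changes. Of all genes, 59.3% were called there. Among genes of nucleic acid sensing, which lie upstream of interferon production, 2 of 18 were higher and 3 lower in mPFC controls, beside 27.8% of all genes called. Irf3, a factor that starts interferon transcription, was at −0.52 (limma adjusted p = 4.36e-06). In vHPC controls 3 of 19 were higher and 7 lower, with Ifih1, a sensor of double-stranded RNA, at −1.32. The counts given here for vHPC controls, and for sensing genes in mPFC controls, lay at or under the share of all genes called. In BNST controls Tbk1, the kinase that activates Irf3, was higher (log2 0.51, edgeR adjusted p = 0.0024), beside 2.51% of all genes called.

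Markers of cells that express these genes also differed between the strains. Of all genes, 14.4% were called lower in D2 controls of the mPFC and 29.1% in those of the vHPC, and 2.51% were called in the BNST. The summed level of 10 microglia markers was 292.1 to 331.2 CPM in B6 controls and 251.1 to 284.3 CPM in D2 controls of the mPFC, where 5 of the 10 were lower. In the vHPC it was 373.1 to 390.5 CPM against 260.6 to 285.6 CPM, with 8 lower and 1 higher, and in the BNST 301.6 to 415.8 against 279.7 to 343.7 CPM, with 2 lower. The summed level of 8 endothelial markers was 292.0 to 333.5 CPM in B6 and 271.7 to 286.1 CPM in D2 controls of the mPFC (2 lower), and 351.0 to 388.5 against 246.7 to 262.5 CPM in the vHPC (8 lower). In the BNST it was 241.5 to 285.0 CPM in B6 and 230.9 to 300.0 CPM in D2 controls, with none of the 8 called. In vHPC controls the summed level of 8 astrocyte markers was 6264 to 6875 CPM in B6 and 5450 to 5953 CPM in D2 mice (7 lower, 1 higher), and that of 6 choroid plexus markers 39.11 to 2125 against 22.95 to 540.7 CPM (6 lower). Astrocyte markers overlapped in the mPFC, at 4799 to 5633 CPM in B6 and 4250 to 5218 CPM in D2 controls, and in the BNST. Neuron markers went the other way in vHPC controls, with a summed level of 4526 to 5100 CPM in B6 and 5448 to 5892 CPM in D2 mice. In the mPFC and BNST the neuron marker ranges of the controls overlapped. The part of any of these markers in the strain differences of the members was not tested. Of 9 lymphocyte and neutrophil markers, 1 was tested in the mPFC, none in the vHPC and none in the BNST, where they summed to 3 to 64 reads a library.

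After defeat, limma called no member in the mPFC. In resilient against control B6 mice all 8 members had a difference below 0, with a median of −0.26, against 49.0% of all genes below 0. These members came from the same mice and varied together, so they are not independent observations. No gene of the 18946 was called (0.0%) and 3.86% had an unadjusted p under 0.05, among them 2 members. Ifit3 ranged from 3.02 to 3.63 log2 CPM in controls (median 3.34) and from 2.66 to 3.21 in resilient mice (median 2.97). The groups overlapped, and the log2 difference was −0.42 (SE 0.12, unadjusted p = 0.00211 and adjusted p = 0.999 by limma). In susceptible B6 mice 5 of the 8 differences from control lay below 0, with a median of −0.052, against 49.9% of all genes. No member was called or had an unadjusted p under 0.05, beside 2.22% of all genes called and 18.2% at an unadjusted p under 0.05. In susceptible D2 mice 7 of 8 lay above 0 (median 0.15), while 49.2% of all genes lay below 0, with no gene called (0.0%), 3.87% of all genes at an unadjusted p under 0.05, and the lowest p among members for Irf9 (log2 0.16, limma unadjusted p = 0.0235, adjusted 0.985). Against resilient B6 mice, which also served in the first of these comparisons, susceptible B6 mice had differences above 0 in all 8 members (median 0.20), while 50.6% of all genes lay below 0 and 2.02% were called. Oasl2 came nearest, from 0.60 to 1.37 log2 CPM in resilient mice (median 1.139) and from 1.117 to 2.05 in susceptible mice (median 1.64). It overlapped and did not pass (log2 0.49, limma unadjusted p = 0.00626, adjusted p = 0.102). Most of these susceptible mice had a mouse ID prefix, the part before the point, that no resilient mouse had. Prefix and phenotype are therefore hard to tell apart between these groups.

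**Figure D3:**
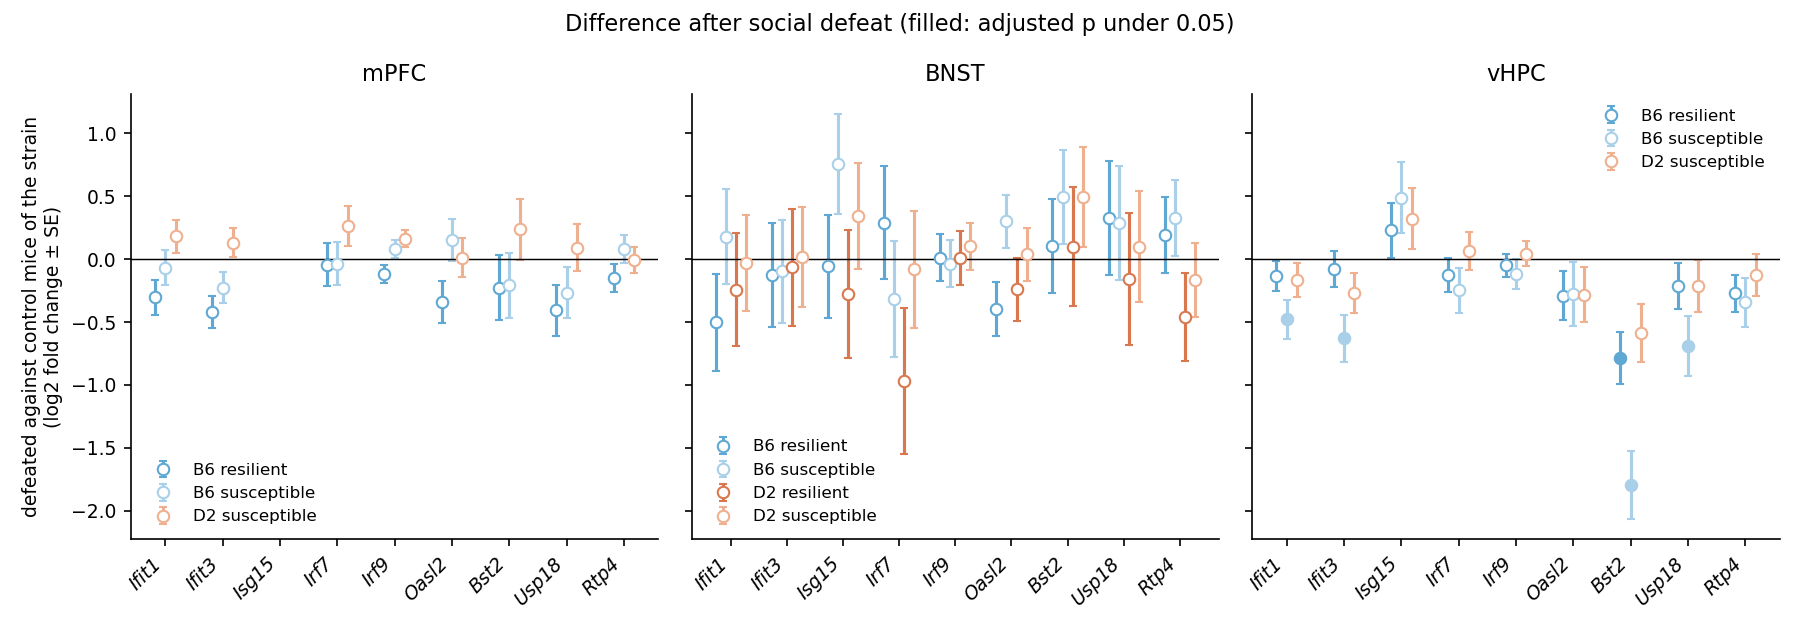
Difference of resilient and susceptible mice from the control mice of their strain for each gene, as log2 fold change ± SE (vertical axis), in each region, with filled points for an adjusted p under 0.05. No point is filled in the mPFC and BNST, and in the vHPC the filled points belong to B6 mice, with Bst2 lowest at −1.80 in susceptible mice.

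In the BNST no member was called in any comparison of defeated with control mice, nor was any other gene (0.0% in each of 4 comparisons), and no member had an unadjusted p under 0.05 in them. Of all genes, 1.87% and 6.37% had one in resilient and susceptible B6 mice and 5.44% and 6.03% in resilient and susceptible D2 mice. Between susceptible and resilient B6 mice edgeR called 1 gene of all (0.00571%) and no member. Oasl2 was counted 65, 63, 44, 62 and 53 times in resilient and 87, 69, 94, 108 and 98 times in susceptible mice. Its levels were 2.19, 2.06, 1.79, 2.04 and 1.95 log2 CPM in resilient and 2.6, 2.63, 2.48, 2.86 and 2.92 in susceptible mice, without overlap, as were 1.15% of all genes. The log2 difference was 0.70 (SE 0.21), at an unadjusted p of 0.00284 and an adjusted p of 0.343 by edgeR. The summed level of 6 cortex markers was 127.0 to 957.7 CPM in the resilient and 145.0 to 179.7 CPM in the susceptible mice, with 5 of the 6 at an unadjusted p under 0.05 and none called by edgeR, and their part in the Oasl2 difference was not tested. Oasl2 thus had the lowest p of the members between susceptible and resilient B6 mice in both the mPFC and the BNST, and passed in neither. In the vHPC its log2 difference between these groups was 0.015 (limma unadjusted p = 0.952). In susceptible against resilient D2 mice all 9 members had a difference above 0, while 49.5% of all genes lay below 0. Again these members came from the same mice and are not independent. The resilient D2 mice had mouse ID prefixes that no other D2 mouse of the BNST had. In comparisons with these mice, prefix and phenotype thus cannot be told apart. No gene was called (0.0%), and no member but 1.31% of all genes had an unadjusted p under 0.05, in groups of 5 and 3.

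In the vHPC several members were lower in defeated B6 mice, in the libraries whose strain genes were shifted as described above. Bst2 ranged from 1.87 to 3.35 log2 CPM in controls (median 2.66), from 1.54 to 2.11 in resilient mice (median 1.83), and stood at 0.83, 0.75 and 0.92 in susceptible mice. The resilient mice overlapped with the controls, 5 of 8 lying below the lowest control, and all 3 susceptible mice lay below every other B6 mouse. Bst2 differed from control by −0.79 in resilient mice (SE 0.21, limma adjusted p = 0.0126), the single member of 9 called. Of all 19559 genes 2120 were called, and 5.9% of all genes were called lower. Bst2 was 3.48-fold lower in susceptible mice than in controls (log2 −1.80, SE 0.27, limma adjusted p = 1.85e-05).

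Ifit1, Ifit3 and Usp18 were also called lower in susceptible B6 mice of the vHPC, making 4 of 9 members, beside 40.6% of all genes called and 20.1% lower. Ifit3 ranged from 1.75 to 2.56 log2 CPM in controls (median 2.04) and stood at 1.37, 1.59 and 1.38 in susceptible mice. Its log2 difference was −0.63 (limma adjusted p = 0.00982). Ifit1 was at 1.63, 1.72 and 2.00 against 1.85 to 2.53 in controls, overlapping (log2 −0.48, limma adjusted p = 0.0177). Usp18 was at 0.29, 0.19 and 0.54 against 0.45 to 1.35, also overlapping (log2 −0.69, limma adjusted p = 0.0246). The groups did not overlap for Ifit3, Bst2 and Rtp4, nor for 37.7% of all genes. Isg15 had the one difference above 0 (0.49, limma adjusted p = 0.168), while 51.5% of all genes lay below 0. Against resilient mice, Bst2 (log2 −1.01, limma adjusted p = 0.00929) and Ifit3 (log2 −0.55, limma adjusted p = 0.0263) were lower in susceptible mice, beside 27.6% of all genes called and 13.6% lower. Without susceptible mouse 1 or 2 the calls of Ifit1 and Usp18 against controls were lost (limma adjusted p of up to 0.0903 and 0.103). Against resilient mice the call of Ifit3 was lost without any 1 of the 3 susceptible mice (up to 0.0894), and that of Bst2 without susceptible mouse 2 (0.0541).

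The vHPC calls in defeated B6 mice changed with the covariates in the fit. No library set held both control and defeated B6 mice, so the fit with library set cannot separate it from defeat. Within the first sequencing set Bst2 was lower in susceptible mice (log2 −1.75, limma adjusted p = 0.00618). With library set as a covariate its difference was −2.20 with an SE of 0.80, and no call of any member remained in B6 mice (limma adjusted p = 0.271 for Bst2). With the position between the strains as a covariate the Bst2 difference was −0.47 (limma adjusted p = 0.843). That position was −0.0363 to 0.0396 in B6 controls and 0.302 to 0.47 in defeated B6 mice. As these do not overlap, this fit cannot separate the position from defeat either. In resilient mice the Bst2 difference was −0.69, −0.63, −1.28 and 0.18 with sequencing set as a covariate, in the first sequencing set, with library set and with the strain position, and none of these passed.

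**Figure D4:**
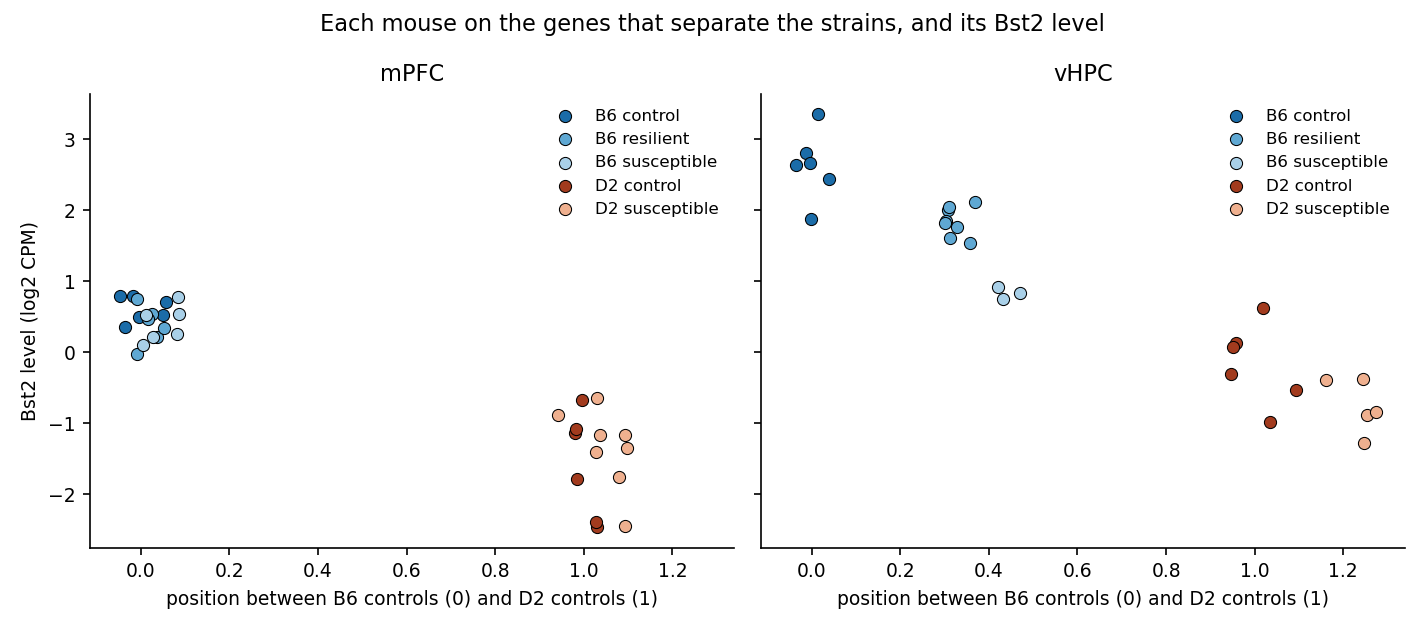
Bst2 level in log2 CPM (vertical axis) of each mouse against its position between B6 controls (0) and D2 controls (1) on genes that separate the strains, excluding the members, in the mPFC and vHPC. In the mPFC the B6 mice gather near 0 and the D2 mice near 1, whereas in the vHPC defeated B6 mice lie between, at 0.302 to 0.47, and hold intermediate Bst2 levels.

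In D2 mice of the vHPC no member was called after defeat by limma, beside 4.28% of all genes, and 1 had an unadjusted p under 0.05, beside 17.6% of all genes. Bst2 had the lowest p, with −1.27, −0.38, −0.88, −0.84 and −0.39 log2 CPM in susceptible mice against −0.99 to 0.62 in controls (log2 −0.59, SE 0.23, limma unadjusted p = 0.0179, adjusted p = 0.175). The groups overlapped, and all 5 susceptible mice lay below the control mean. Of 6 vHPC library sets that held D2 mice, 1 contained both controls and defeated mice of that strain. In position between the strains susceptible D2 mice lay at 1.16 to 1.27 and D2 controls at 0.947 to 1.09, without overlap. Library set and strain position are thus hard to separate from defeat in D2 mice too. The vHPC interaction carries the limits of both strains. The difference between the effects in D2 and B6 mice was tested as an interaction, and no member was called in any region, nor was any gene in the mPFC and BNST (0.0%). At an unadjusted p under 0.05 there was 1 member each in the mPFC (Ifit3) and vHPC (Bst2) and 0 in the BNST, beside 9.32%, 18.4% and 11.4% of all genes in that order. In the vHPC that of Bst2 was 1.21 (SE 0.36, limma unadjusted p = 0.00223, adjusted p = 0.108), beside 0.782% of all genes called.

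The wider list of interferon-stimulated genes was lower in the same vHPC libraries. In susceptible B6 mice 37 of 61 were lower than in controls and 5 higher (median −0.51), and in resilient mice 11 were lower and 2 higher (median −0.19). Of all genes, 40.6% were called in these susceptible mice, 20.1% lower, and 5.9% were called lower in resilient mice. In susceptible mice the log2 difference was −2.23 for Gbp9 and 0.93 for Slfn9. In susceptible D2 mice 3 were lower than in controls and 1 was higher, beside 4.28% of all genes called. Gbp9 was also the single gene of the list with an interaction (log2 1.27, limma adjusted p = 0.00244), beside 0.782% of all genes. No gene of the list was called by limma or edgeR after defeat in the mPFC or BNST, and 0 to 12 of its genes had an unadjusted p under 0.05 in each comparison with controls, the 12 in resilient B6 mice of the mPFC. Of all genes, 3.86% had one in those mice, and 1.87% to 18.2% in the other comparisons of these regions with controls. Markers of other cells moved in these libraries too. The summed level of microglia markers was 303.8 to 321.1 CPM in susceptible and 318.4 to 364.7 CPM in resilient B6 mice, below the 373.1 to 390.5 CPM of controls, with 7 and 3 of 10 called lower. That of endothelial markers was 277.2 to 307.4 CPM in susceptible mice against 351.0 to 388.5 CPM in controls, with 6 of 8 lower. The summed level of 6 neuron markers was 5244 to 5550 CPM in susceptible mice against 4526 to 5100 CPM in controls, with 4 higher. Cortex markers summed to 881.6 to 915.9 CPM in susceptible, 652.8 to 888.5 CPM in resilient and 711.2 to 752.2 CPM in control B6 mice, and all 6 were called higher in susceptible mice against either group. Against resilient mice 27.6% of all genes were called. The summed level of 6 choroid plexus markers ranged from 39.11 to 2125 CPM in B6 controls and from 24.66 to 80.86 CPM in susceptible B6 mice. Their part in the lower levels of the members was not tested.

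Within groups the members tended to vary together from mouse to mouse. Each value was set against the mean of its group, and the deviations were correlated over the mice of a region. The genes of a mouse share its library, depth and cell content. In the mPFC, BNST and vHPC the mean of the members ran at −0.374, −0.565 and −0.160 with neuron markers. With endothelial markers it ran at 0.259, 0.367 and 0.408. The part of cell content in the pairs below was not tested. In the BNST, susceptible B6 mouse 3 lay furthest from its group, at a mean deviation of −0.776. The correlation was above 0 in 25 of 28 pairs of members in the mPFC (median r 0.361, 32 mice), 31 of 36 in the BNST (median 0.167, 28 mice) and 32 of 36 in the vHPC (median 0.379, 28 mice). The closest pairs were Ifit1 with Usp18 in the mPFC (0.593) and vHPC (0.756), and Ifit1 with Rtp4 in the BNST (0.598). Bst2 followed the mean of the other members only weakly, at 0.139, 0.254 and 0.190 in the mPFC, BNST and vHPC. Usp18 reached 0.675 in the mPFC, and Rtp4 0.789 and Oasl2 0.766 in the vHPC. Isg15 ran at −0.249 in the BNST, with Ifit3 and Isg15 the most opposed pair there (−0.504). Some mice lay to one side in every member. In 1 D2 control mouse of the vHPC all 9 members lay above the group mean, and in another all 9 lay below it.

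**Figure D5:**
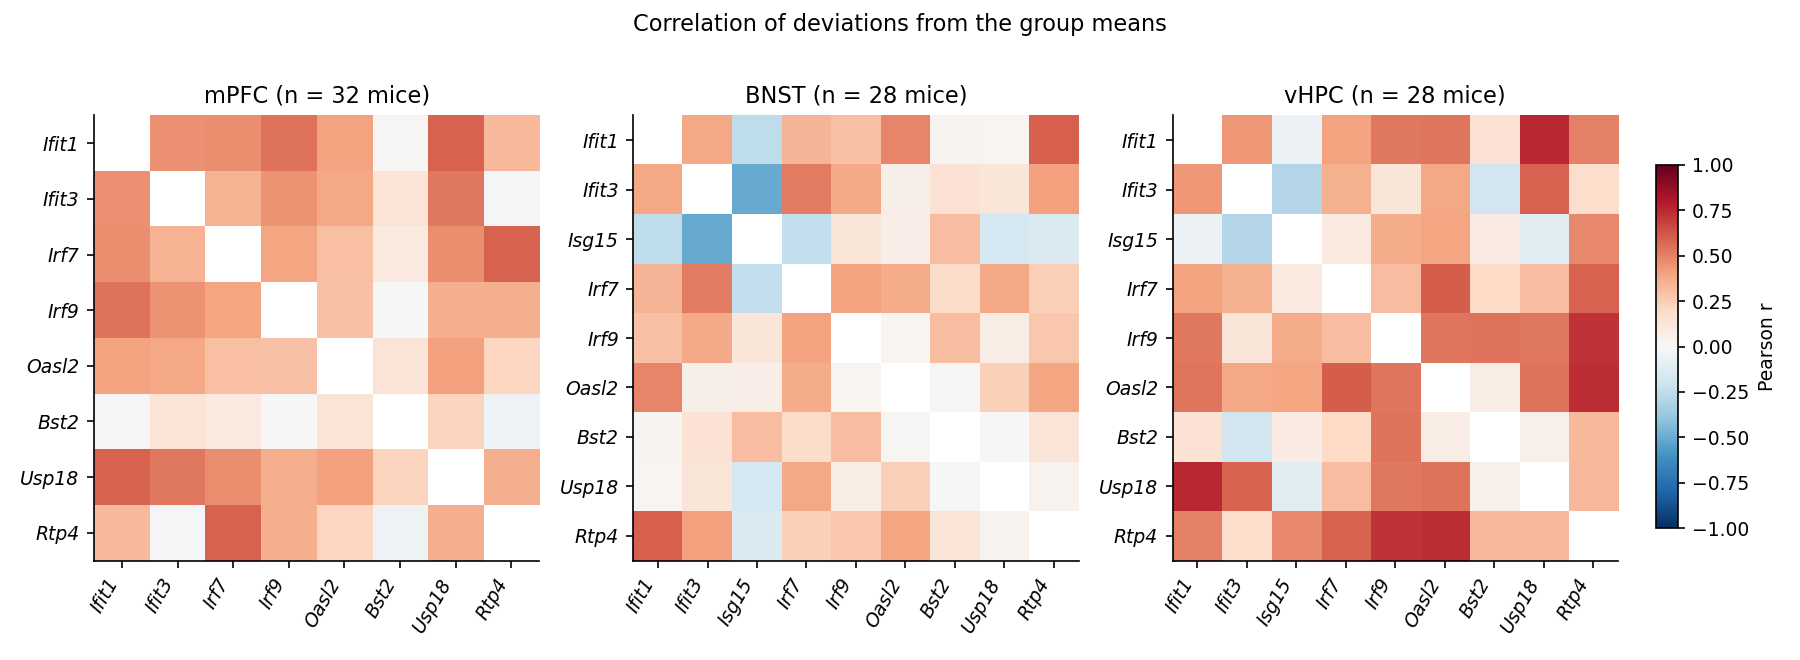
Pearson correlation, as colour from −1 to 1, between each pair of members over the mice of a region, computed on deviations from the group means in log2 CPM. Most pairs are above 0 in the mPFC and vHPC, whereas Bst2 shows weaker values with the rest, other than Irf9 in the vHPC, and Isg15 runs opposite to Ifit3 in the BNST.

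The genes most like the members in this variation were sought among all genes tested, by the correlation of their deviations with the mean deviation of the members. In the mPFC the 10 highest were Ddx60 (0.787), Rnf213 (0.783), Gbp3 (0.783), Parp14 (0.766), Parp9 (0.764), Pglyrp1 (0.711), Tap1 (0.696), Gbp2 (0.695), Irgm1 (0.685) and Tbxas1 (0.670). Of these, 8 were on the wider list of interferon-stimulated genes, which makes up 0.322% of the other genes. In the vHPC the highest were Gpx2-ps1 (0.848), Rnf213 (0.829), Trim30a (0.814), Ifi44 (0.797), Lgals3bp (0.778) and Parp14 (0.757), followed by 4632415L05Rik, Ccdc171, Rel and Alg5, and 5 of the 10 were on that list. In the BNST the leading gene was Kcnj5 (0.833), followed by Tspan4, Plce1, Lhfpl5, BC024139, Mkrn3 and Tspan32os, then Ifit3b (0.721), Agtr2 and Plod2. Only Ifit3b, which shares sequence with Ifit3, was on the list. Over all genes the 95th percentile of this correlation was 0.343, 0.477 and 0.411 in the mPFC, BNST and vHPC. In the 7 mice with both an mPFC and a vHPC library, the mean deviation of the members had the same sign in both regions in 5.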

How the data were processed

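RNA from dissected mPFC, BNST and vHPC was depleted of ribosomal RNA and sequenced, with a different library kit in each region. The authors trimmed adapters, removed duplicate reads, aligned with STAR to GRCm38 and counted exonic reads with HTSeq. The BNST values are the deposited counts, 11825757 to 25793910 per library. The mPFC and vHPC values are log2 CPM after the authors' low count filter, voom and a ComBat adjustment for library set, and for sequencing set as well in the vHPC. Which groups ComBat was given is not stated in the sources used here.

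Groups came from the labels. BNST genes reaching 1 CPM in 6 or more libraries were kept, scaled with TMM and tested with edgeR 4.0.16 (robust quasi-likelihood), and log2 CPM was computed with a prior count of 0.5. The mPFC and vHPC values were tested with limma 3.58.1 (robust empirical Bayes). All groups of a region entered 1 fit, and Benjamini-Hochberg adjustment ran over all its genes at 0.05. SE is the standard error of a log2 difference, for edgeR the difference over the root of F. Nothing states litters or cages, so p-values measure the spread between these mice. In the mPFC and vHPC this is the spread left after the ComBat adjustment. The main fits took no degrees of freedom for that adjustment, so their p-values can be too small. Symbols came from GENCODE M21. The members and lists were chosen with earlier results of these data known. Named genes were the members, the largest called rise and fall of each pathway list, and the 10 genes most like the members. A called gene of the signalling list is not reported here. The position between the strains used genes with a log2 difference above 3 in BNST controls, without the members, 112 genes. In the mPFC and vHPC only those that differed by more than 1 the same way in controls of that region were kept, 75 and 77 genes. These controls also set 0 and 1. Library and sequencing sets came from the study's sample list. The tests were tried on simulated data. Analyses ran in R 4.3.3 and Python 3.11.15, with DESeq2 1.42.0 as an alternative.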

Additional observations from a re-analysis of the deposited data

Results flagged for a closer look

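In 3 of 121 groups of 4 to 10 mice, 1 mouse lay far from the rest, with a gap to the nearest other value above Dixon's critical value. Chance flags about 1 in 20 such groups. In resilient B6 mice of the BNST, Ifit1 was −0.99 log2 CPM in replicate 3, and the next lowest mouse was at 0.75, on 6 reads against 25 to 32 in the others. In susceptible B6 mice of the BNST, Ifit3 was −1.38 in replicate 3, and the next lowest was at 0.66, again on 6 reads against 19 to 37. In D2 controls of the mPFC, Rtp4 was 0.65 in replicate 3, below the next value of 0.88.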

How the results depend on the processing

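No paired analysis was possible because no comparison had the same mouse in both of its groups and replicate numbers follow the sample order only. Across the alternatives that kept all mice, 168 counts of members called stayed within 1.5 times the value reported and 24 did not. With 1 mouse left out, 270 stayed and 13 did not. In most comparisons no member was called, and a count that began at 0 could only stay or rise. These tallies therefore say little about the calls that were made. For single members, 289 values kept their direction and side of the threshold under the first kind of alternative, 35 lost their call, 1 gained one and 11 changed sign.

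In mPFC D2 against B6 controls 3 members were called with a mean log2 CPM of at least 1, which left 5 members in the fit, and 4 to 7 with 1 mouse left out. There the call of Ifit1 was lost without B6 control 5, that of Ifit3 without B6 control 3 or 6 or D2 control 1 or 5, and that of Irf7 without B6 control 2 or 5 or D2 control 5, and with only the groups compared. In BNST susceptible mice D2 against B6 gave 0 calls with library totals without TMM, without the low count filter, with limma on log2 CPM and with only the groups compared. Leaving out 1 mouse gave 0 to 1, with 0 without susceptible B6 mouse 2, 4 or 5 or susceptible D2 mouse 1, 2, 4 or 5.

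In vHPC B6 mice, resilient against control gave 0 calls with library set or sequencing set as a covariate, in sequencing set 1 alone and with the strain position as a covariate. Library set and strain position cannot be told apart from defeat in these mice. Susceptible against control gave 0 calls with library set, 2 in sequencing set 1 alone and 0 with the strain position, and 2 to 4 with 1 mouse left out, the lowest without susceptible mouse 1 or 2, where Ifit1 and Usp18 were lost. Susceptible against resilient gave 0 with library set, 1 with sequencing set, 0 in sequencing set 1 alone, 1 with the strain position and 1 with only the groups compared, and 0 to 2 with 1 mouse left out, 0 without susceptible mouse 2 and 1 without susceptible mouse 1 or 3. D2 against B6 controls gave 3 with the filter on the mean, 1 with library set (Bst2) and 0 with the strain position, and 5 to 8 with 1 mouse left out. The call of Isg15 there was lost without B6 control 1, 2, 5 or 6, without D2 control 1, 2, 3 or 4, in sequencing set 1 alone and with only the groups compared. D2 against B6 susceptible mice gave 0 with library set, in sequencing set 1 alone and with the strain position, and 1 to 2 with 1 mouse left out, 2 without susceptible D2 mouse 5. The vHPC interaction gave 1 call, of Bst2, with quantile normalization.

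Some vHPC log2 differences changed sign. Bst2 in resilient against control B6 mice became 0.18 with the strain position. Bst2 in susceptible against control D2 mice became 0.021 with library set and 0.12 with the strain position. Isg15 between controls became −0.062 with library set. With the strain position, which holds the strain difference by construction, D2 against B6 controls became 1.06 for Irf7, 1.37 for Irf9, 0.21 for Bst2, 0.26 for Usp18 and 1.74 for Rtp4, and susceptible mice 0.80 for Bst2 and 1.46 for Rtp4. The mouse ID prefix could not be fitted as a covariate of strain, since each prefix belongs to 1 strain. Nor could it be fitted for the resilient D2 mice of the BNST, whose prefixes no other D2 mouse there had. For the other changes the cause was not tested. Counts of a few reads limit the BNST values, and no counting error was computed for the mPFC and vHPC values, whose tables hold no counts.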
